A study of Mus musculus with 4 samples.

Results

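The receptors described here are 9 genes of the TNF receptor superfamily, namely Tnfrsf4, Tnfrsf9, Tnfrsf18, Tnfrsf1a, Tnfrsf1b, Tnfrsf8, Tnfrsf25, Cd27 and Fas, chosen by name, with earlier results of these data known. Each was read from the probe set of highest mean over the 4 arrays among those that the platform annotation gives to that gene alone, and the 9 stand among 18193 genes with such a probe set. RNA came from CD4 T cells sorted from the lamina propria, the tissue layer beneath the gut epithelium, of the large intestine of mice on a mixed 129/B6 background that were heterozygous for a GFP knock-in at the Gpr15 locus. The GFP-positive group (2 arrays) held the sorted cells that carried the GFP reporter of Gpr15, a chemoattractant receptor known for homing of T cells to the large intestine, and the GFP-negative group (2 arrays) held the sorted cells without it. Both groups carried the same knock-in allele, so GFP reports activity of the locus and neither group is wild type. The labels give neither the age of the mice nor the number of mice behind an array.

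TNF receptor superfamily proteins are bound by trimeric ligands of the TNF superfamily and pass the signal on without enzymatic activity of their own. Tnfrsf4 (OX40), Tnfrsf9 (4-1BB), Tnfrsf18 (GITR), Tnfrsf8 (CD30), Cd27 and Tnfrsf1b (TNF receptor 2) recruit TRAF adaptors, which lead to NF-kappaB activity, and act as costimulatory receptors on T cells. Tnfrsf1a (TNF receptor 1), Tnfrsf25 (death receptor 3) and Fas carry a death domain, through which they can start apoptosis, although Tnfrsf25 is known in T cells mainly for costimulation. Several of the TRAF-binding receptors, GITR, OX40, 4-1BB and TNF receptor 2 among them, are known for high expression on regulatory T cells.

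The sort was visible in Gpr15, with signals of 619 and 729 on the GFP-positive arrays and 146 and 162 on the GFP-negative arrays. T cell identity genes had a median log2 difference of -0.038 over 9 tested genes, in a range of -0.35 to 0.34. Of the 9, 7 had a difference below 0 and 2 above. Both GFP-positive arrays lay below both GFP-negative arrays in 3 and above them in 1, against 18.7% and 28.7% of all tested genes. The replicate 1 arrays had Xist signals of 4313 and 4172 in the GFP-positive and GFP-negative groups, and the replicate 2 arrays 112 and 55.1, while the Y-linked Eif2s3y ran the other way, as between female and male mice, and the spread within a group, on which the p-values rest, includes that between these mice. Each replicate number held 1 array per group, so differences within a number stand beside those of the group means. At an equal trimmed mean of 150.0, GFP-positive arrays had median signals of 46 and 45.2 and GFP-negative arrays 37.0 and 36.1, and dim probe sets as a whole were brighter on the GFP-positive arrays.

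All 9 receptors had a higher mean on the log2 scale in GFP-positive cells, in a comparison where 57.7% of the 12252 tested genes had a difference above 0. The median of the 9 differences was 0.72 on the log2(signal + 16) scale, against 0.075 over all tested genes, and it was 0.73 within replicate 1 and 0.74 within replicate 2. In 7 receptors both GFP-positive arrays lay above both GFP-negative arrays, which was so in 28.7% of all tested genes. Tnfrsf9 and Tnfrsf4 were at least 2-fold higher with groups that did not overlap, and none of the 9 was that much lower, against 3.4% of all tested genes higher and 1.31% lower by this measure, with Tnfrsf4 at 1.10 just inside that size and Tnfrsf8 at 0.99 just outside it. None of the 9 passed an adjusted p under 0.05 in limma, where 0.0326% of tested genes were called higher, and 5 of them had an unadjusted p under 0.05, all of them higher, against 10.2% of genes that were higher and 4.37% that were lower by that measure. All 9 exceeded the minimum signal for testing, Tnfrsf8 through its GFP-positive arrays. The counts of 7 and of 5 above include Tnfrsf8, which its higher group thus brought into the test. Array signals of sorted bulk cells do not tell a larger share of cells with a transcript from more transcript per cell.

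**Figure D1:**
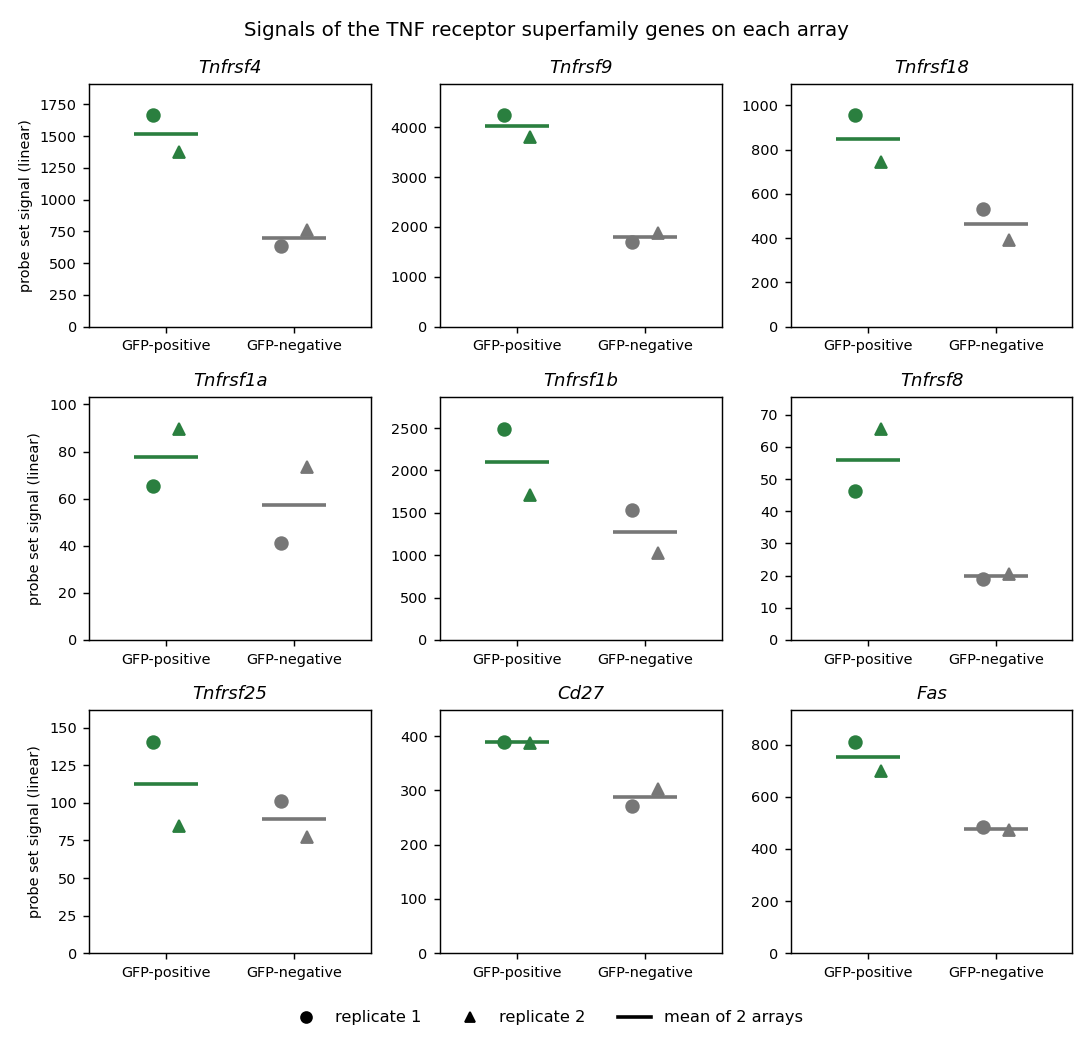
Probe set signal (linear, arbitrary units, axis from 0) of the 9 receptor genes on each array, GFP-positive left and GFP-negative right. Circles are replicate 1, triangles replicate 2 and bars the mean of 2 arrays. The groups are apart in 7 genes and overlap in Tnfrsf1a and Tnfrsf25.

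On the log2(signal + 16) scale the largest differences were those of the activation-induced costimulatory receptors 4-1BB and OX40, while Tnfrsf8 led the 9 with a pseudocount of 1 (1.43, against 1.16 for Tnfrsf9 and 1.12 for Tnfrsf4) and without GFP-positive replicate 1 (1.19, against 1.08 and 0.97). Tnfrsf9, the gene of 4-1BB, had signals of 4239 and 3795 on the GFP-positive arrays, against 1703 and 1882 on the GFP-negative arrays. The groups were far apart and the replicates of a group close together. Its means were 4017 ± 314 in GFP-positive and 1793 ± 127 in GFP-negative cells (SD, n = 2 each), a log2 difference of 1.16 with a 95% interval of 0.63 to 1.68 and an adjusted p of 0.167 in limma. Of all tested genes, 1.86% had a larger difference. A second probe set of Tnfrsf9 had signals of 627 and 589 in GFP-positive and 154 and 107 in GFP-negative cells, a log2 difference of 2.11, and its adjusted p was 0.0907 when it stood in for the first. The third probe set was under the minimum signal, at 48.9 and 14.5 in GFP-positive and 17.5 and 23.6 in GFP-negative cells, and its groups overlapped.

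Tnfrsf4, the gene of OX40, had signals of 1663 and 1376 on the GFP-positive arrays and 638 and 762 on the GFP-negative arrays. The lower GFP-positive array was thus well above the higher GFP-negative one. The means were 1519.7 ± 203 and 699.7 ± 87.6 (SD, n = 2 each) in GFP-positive and GFP-negative cells, a difference of 1.10 (0.53 to 1.67; limma adjusted p = 0.187). The difference was 1.36 within replicate 1 and 0.84 within replicate 2. Tnfrsf18, the gene of GITR, a receptor by which regulatory T cells are often recognised, had signals of 955 and 743 on the GFP-positive arrays, against 531 and 393 on the GFP-negative arrays. Replicate 1 was the higher array in both groups, and the groups did not overlap. The difference was 0.86 (0.22 to 1.504; limma adjusted p = 0.268), and it was nearly equal within replicate 1, at 0.83, and within replicate 2, at 0.89.

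Tnfrsf8, the gene of CD30, was the dimmest of the receptors, with signals of 46.1 and 65.6 in GFP-positive and 19.1 and 20.6 in GFP-negative cells. The GFP-negative signals were below the 27.3 set as the minimum mean for testing. Its mean over all 4 arrays passed that minimum through the GFP-positive arrays. The ratio of the group means was 2.82, above those of Tnfrsf9 (2.24) and Tnfrsf4 (2.17), while the difference on the log2(signal + 16) scale was 0.99 (0.41 to 1.57; limma adjusted p = 0.217), and it was 0.51 with a pseudocount of 64. Quantile normalization, which removes the array-wide offset of dim probe sets, gave 0.79.

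The sequences just before the transcription starts are shown for these 4 receptors, which had the largest differences of the 9, to set a start with NF-kappaB and AP-1 matches beside starts without any. They are the 250 bases before the annotated start, written 5′ to 3′ on the gene's strand, from RefSeq on build GRCm38.p6. Capitals mark every match to the NF-kappaB consensus, the AP-1 motif TGANTCA, the RUNX motif TGTGGT or the forkhead motif TGTTTA on either strand.
Tnfrsf9 (downstream start), chr4:150927749-150927998, plus strand: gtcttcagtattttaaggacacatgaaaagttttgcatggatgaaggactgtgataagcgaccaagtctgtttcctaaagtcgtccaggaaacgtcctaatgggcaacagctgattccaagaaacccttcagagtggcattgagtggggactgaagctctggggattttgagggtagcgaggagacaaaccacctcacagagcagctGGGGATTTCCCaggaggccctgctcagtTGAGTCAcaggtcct
Tnfrsf8, chr4:145315165-145315414, minus strand: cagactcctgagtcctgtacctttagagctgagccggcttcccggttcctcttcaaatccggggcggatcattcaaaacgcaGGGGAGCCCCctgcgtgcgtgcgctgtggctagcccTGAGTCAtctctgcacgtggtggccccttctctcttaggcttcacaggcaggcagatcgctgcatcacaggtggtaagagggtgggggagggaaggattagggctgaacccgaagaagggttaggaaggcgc
Tnfrsf4, chr4:156013445-156013694, plus strand: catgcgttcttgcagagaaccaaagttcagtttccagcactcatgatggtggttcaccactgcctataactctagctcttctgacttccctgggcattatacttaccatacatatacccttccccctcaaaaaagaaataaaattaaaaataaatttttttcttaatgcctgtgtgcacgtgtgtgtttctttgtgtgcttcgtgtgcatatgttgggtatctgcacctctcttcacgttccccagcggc
Tnfrsf18, chr4:156026072-156026321, plus strand: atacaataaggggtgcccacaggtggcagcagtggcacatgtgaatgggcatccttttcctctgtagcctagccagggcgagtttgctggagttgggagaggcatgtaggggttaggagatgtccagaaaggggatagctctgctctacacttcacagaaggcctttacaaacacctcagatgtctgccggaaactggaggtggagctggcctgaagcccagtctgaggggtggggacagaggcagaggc
The downstream of the 2 annotated starts of Tnfrsf9 had NF-kappaB matches that begin 43 and 42 bases before the start and overlap each other, and an AP-1 match that begins 15 bases before it. Tnfrsf8 had an NF-kappaB match 168 bases and an AP-1 match 132 bases before its start. No match stood in the windows of Tnfrsf4 and Tnfrsf18. Among the 11 windows of the 9 genes, 2 held an NF-kappaB match and 3 an AP-1 match, the third being that of Fas, while 3.9% and 6.75% of 32851 windows of all genes held them. A RUNX match stood in 1 window, of Tnfrsf25, and a forkhead match in 1, at the other start of Tnfrsf9, against 14.0% and 12% of all windows. The matches are letters in these windows only, and binding was not measured.

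Among the other TRAF-binding receptors, Tnfrsf1b, the gene of TNF receptor 2, had signals of 2493 and 1714 on the GFP-positive arrays and 1532 and 1023 on the GFP-negative arrays. The groups did not overlap, but the lower GFP-positive array was close to the higher GFP-negative one. Replicate 1 was 1.45 times replicate 2 in GFP-positive and 1.497 times replicate 2 in GFP-negative cells, and the group difference of 0.72 had a wide interval (-0.048 to 1.48; limma adjusted p = 0.364). Within the replicate numbers the difference was nearly the same, at 0.70 and 0.74. The second, dim probe set of Tnfrsf1b, with signals of 50.3 and 62.02 in GFP-positive and 27.8 and 24.0 in GFP-negative cells, differed by 0.78.

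Cd27, a receptor of naive and memory T cells that binds CD70, had signals of 389 and 388 in GFP-positive and 271 and 303 in GFP-negative cells. The groups were apart by a small distance, a difference of 0.42 (-0.10 to 0.93; limma adjusted p = 0.419), which 22.6% of tested genes exceeded. Without any 1 of the arrays the difference stayed between 0.34 and 0.49, but it was 0.11 when each array was scaled to an equal median.

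The death domain receptors had differences of 0.26 to 0.64. Fas, which triggers apoptosis on binding Fas ligand and is induced on activated T cells, had signals of 810.5 and 698 on the GFP-positive arrays and 484 and 473 on the GFP-negative arrays. Its groups did not overlap, and the difference was 0.64 (0.11 to 1.16; limma adjusted p = 0.289). Tnfrsf1a, whose product binds TNF on most cell types, had signals of 65.5 and 89.7 in GFP-positive and 41.3 and 73.5 in GFP-negative cells. The groups overlapped, with replicate 2 the higher array in each, and the difference of 0.37 (-0.37 to 1.12; limma adjusted p = 0.611) was 0.053 without GFP-negative replicate 1 and 0.70 without GFP-negative replicate 2. Tnfrsf25, the receptor for TL1A, had signals of 141 and 84.5 in GFP-positive and 102 and 77.3 in GFP-negative cells. These also overlapped, and the difference of 0.26 (-0.47 to 0.99; limma adjusted p = 0.732) was -0.060 without GFP-positive replicate 1.

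**Figure D2:**
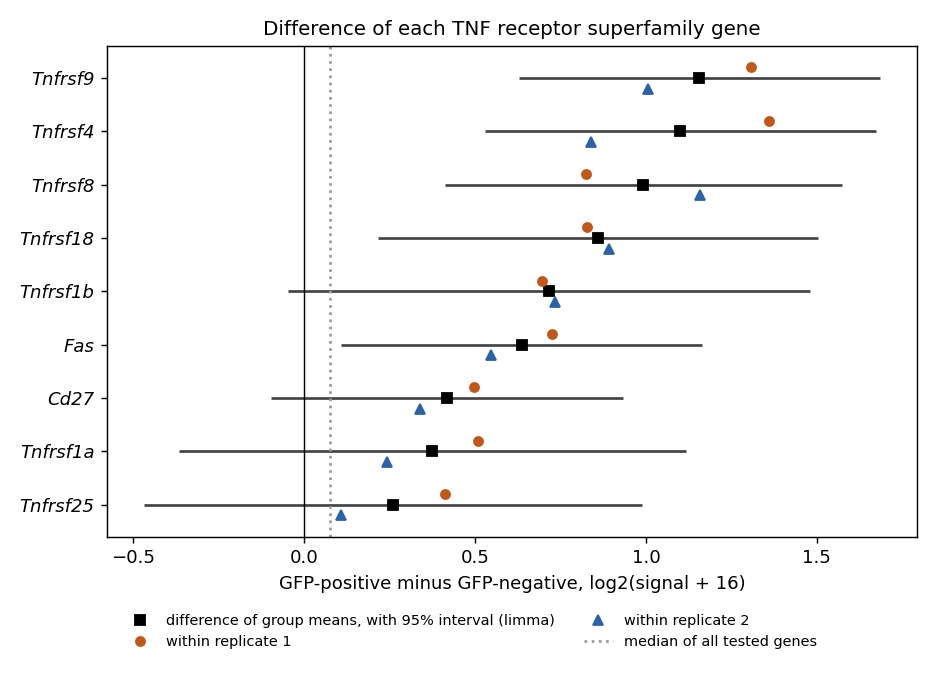
Difference of each receptor gene, GFP-positive minus GFP-negative, on the log2(signal + 16) scale. Squares are differences of the group means with 95% limma intervals (n = 2 arrays each), circles and triangles are differences within replicates 1 and 2, and the dotted line is the median of all tested genes (0.075). The intervals of Tnfrsf9, Tnfrsf4, Tnfrsf8, Tnfrsf18 and Fas lie above 0.

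The arrays were not level over their range of brightness. When the tested genes were split by mean signal into 4 bins of equal size, the median difference was 0.27 in the dimmest bin, 0.20 and 0.014 in the next bins and -0.075 in the brightest. Tnfrsf8 lay in the dimmest bin, where 71.7% of genes had a difference above 0, and Tnfrsf1a and Tnfrsf25 in the next, with 68.8%. Tnfrsf4, Tnfrsf9, Tnfrsf18, Tnfrsf1b and Fas lay in the brightest bin, where 38.8% of genes had a difference above 0, 18.1% had both GFP-positive arrays above both GFP-negative arrays and 1.6% were at least 2-fold higher with no overlap.

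Scaling moved the receptors with this offset. Under quantile normalization the differences of Tnfrsf9 and Tnfrsf4 were 1.22 and 1.16, and those of the dim Tnfrsf1a and Tnfrsf25 were 0.20 and 0.16. Scaling each array to an equal median put the median of all tested genes at -0.20, and it placed Tnfrsf9 at 0.84, Tnfrsf4 at 0.79 and Tnfrsf25 at -0.014. All 9 receptors remained above the median of all genes there, and the median of the 9 was 0.60 above it. The share of tested genes with a difference above 0 was 33.2% under that scaling and 51.5% under quantile normalization.

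**Figure D3:**
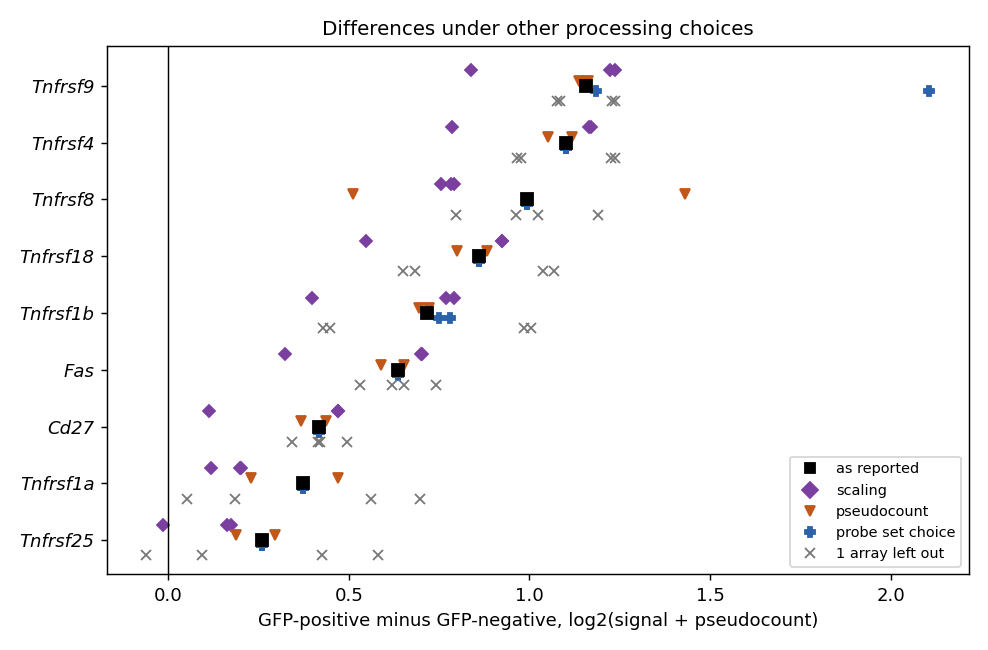
Difference of each receptor gene, GFP-positive minus GFP-negative on the log2 scale, as reported (squares) and under other scalings, pseudocounts and probe set choices and with 1 array left out. Tnfrsf25 is the gene with values below 0, at -0.014 under median scaling and -0.060 without GFP-positive replicate 1, and the second probe set of Tnfrsf9 stands apart at 2.11.

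Most of the receptor genes lie on 1 chromosome. By the RefSeq gene order, 6 of the 9 genes lie on chromosome 4, 2 on chromosome 6 and Fas on chromosome 19. Tnfrsf4 and Tnfrsf18 are direct neighbours among protein-coding genes, with 0 between them, and so are Tnfrsf1b and Tnfrsf8. The measured outer neighbours of these pairs had differences above 0, as had 57.7% of all tested genes. Ttll10, which follows Tnfrsf18 and encodes a tubulin ligase-like polyglycylase, had signals of 165 and 220.3 in GFP-positive and 71.6 and 81.7 in GFP-negative cells, a difference of 1.16 (limma adjusted p = 0.182). Sdf4, on the other side of Tnfrsf4, differed by 0.47, and Dhrs3, a retinal reductase gene next to Tnfrsf1b, by 1.30 (limma adjusted p = 0.187). The neighbour of Tnfrsf8 on the other side was not analysed here. The neighbours of Tnfrsf9, namely Park7 and Per3, differed by 0.42 and 0.21, and those of Fas, namely Acta2 and Ch25h, by -0.12 and 0.20. Scnn1a, next to Tnfrsf1a, differed by 0.56 and Tapbpl, next to Cd27, by -0.068, both with overlapping groups.

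The measured ligand genes of these receptors did not follow them as a group. Of 9 ligand genes listed 7 had a probe set, and the ligand genes of Tnfrsf18 and Tnfrsf25 were not among these. Of the 7, all tested, 5 had a difference below 0 and 2 above, and the median was -0.42, with 0 passing the adjusted test. An unadjusted p under 0.05 in limma was found for 2 ligand genes, both lower, against 4.37% of all tested genes lower. The median was -0.67 under median scaling and -0.26 with a pseudocount of 64. Fasl, the ligand gene of Fas, had signals of 111 and 168 on the GFP-positive arrays and 439 and 449 on the GFP-negative arrays. Both GFP-positive arrays were far below the others, a difference of -1.59 (-2.23 to -0.95; limma adjusted p = 0.146), set against 0.64 for Fas itself. Fasl passed with a pseudocount of 64 (limma adjusted p = 0.0150) and with trend and robust settings (0.00876). Its second probe set differed by -0.94.

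Tnfsf8, the ligand gene of CD30, had signals of 61.6 and 100.4 in GFP-positive and 165 and 192 in GFP-negative cells, a difference of -1.03 (-1.71 to -0.35; limma adjusted p = 0.239), against 0.99 for its receptor gene Tnfrsf8. Tnfsf9, the 4-1BB ligand gene, differed by -0.42 and Lta, lymphotoxin alpha, by -0.42, both with the GFP-positive arrays below the GFP-negative arrays. Tnfsf4, the OX40 ligand gene, differed by 0.57 and thus in the direction of Tnfrsf4. Tnf differed by 0.017 and Cd70, with signals of 8.10 and 66.6 in GFP-positive and 38.1 and 35.9 in GFP-negative cells, by -0.25, and the groups of both overlapped. The share of tested genes with both GFP-positive arrays below both GFP-negative arrays was 18.7%, and it was so in 4 of the 7 ligand genes.

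The other TNF receptor superfamily genes went both ways. Of 18 with a probe set 13 passed the minimum signal, 6 above and 7 below 0, with a median of -0.078 that turned to values above 0 in 5 of the 16 other settings, among them the fits without GFP-positive replicate 1 (0.33) and without GFP-negative replicate 2 (0.035). None passed the adjusted test, and 5 had an unadjusted p under 0.05 in limma, all higher, against 10.2% of all tested genes. Eda2r, the ectodysplasin A2 receptor gene, Tnfrsf21 (death receptor 6) and Cd40, the costimulatory receptor of B and myeloid cells, were at least 2-fold higher with no overlap, at 1.20, 1.04 and 1.02. They were dim, with mean signals in GFP-positive and GFP-negative cells of 77.7 and 27.3 for Eda2r, 71.0 and 27.5 for Tnfrsf21 and 59.6 and 22.4 for Cd40. Their lower GFP-negative signals, 12.2, 16.8 and 9.70, were under the 27.3 set as the minimum mean. The genes passed that minimum through their GFP-positive arrays. At least 2-fold higher without overlap were 3.4% of all tested genes, and 5.22% of those in the dimmest bin.

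Markers of other cells moved with the groups to some extent. Of 19 macrophage and dendritic cell markers 18 had a probe set and 13 passed the minimum signal. All 13 had a difference above 0, with 7 not overlapping. The shares were 57.7% and 28.7% of all tested genes, and 71.7% and 37.4% of those in the dimmest bin. Of the 7, Csf1r and Itgax (26.6 and 21.8) had GFP-negative signals under the 27.3 set as the minimum mean. The summed signal over the 18 markers was 1199 and 3440 in GFP-positive and 614 and 1372 in GFP-negative cells. Of the genes of complement C1q, which macrophages make, C1qa and C1qc were under the minimum signal, while C1qb was at 26.4 and 700.4 in GFP-positive and 13.7 and 85.0 in GFP-negative cells, a difference of 1.67 with overlapping groups. Csf1r, the receptor of macrophage growth factor, was at 35.5 and 164 in GFP-positive and 7.73 and 10.7 in GFP-negative cells, and GFP-positive replicate 2 was the brightest array for these genes. The summed signal of 9 B and plasma cell markers was 7168 and 4876 in GFP-positive and 4342 and 5083 in GFP-negative cells. All 8 tested markers of this list had a difference above 0, with a median of 0.41, against 57.7% of all tested genes above 0. Of the 8, 3 were higher without overlap and 0 lower, against 28.7% and 18.7% of all tested genes. The summed signal of 12 epithelial markers was 2920.0 and 598 in GFP-positive and 745 and 872 in GFP-negative cells. The sum of epithelial markers was thus brightest on GFP-positive replicate 1. Of 9 tested epithelial markers 7 had a difference above 0 and 2 below, and 2 did not overlap, both higher. These were Epcam, at 246 and 175 in GFP-positive and 72.3 and 42.5 in GFP-negative cells (1.64; limma adjusted p = 0.167), and Krt18, which differed by 1.31. The median of the 9 receptors was 0.56 without GFP-positive replicate 1, with Tnfrsf9 at 1.08, Tnfrsf4 at 0.97 and Tnfrsf25 at -0.060, and 0.80 without GFP-positive replicate 2, with Tnfrsf9 and Tnfrsf4 at 1.24 each. The part of these cells in the dim receptor signals was not tested.

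Most core genes of regulatory T cells moved with the receptors as well. Of 12 such genes, all tested, 10 had a difference above 0, and the median was 1.32. In 9 both GFP-positive arrays lay above both GFP-negative arrays, against 28.7% of all tested genes. Foxp3, their lineage factor, had signals of 441 and 472 in GFP-positive and 76.6 and 72.2 in GFP-negative cells, a difference of 2.38 (limma adjusted p = 0.0705). Klrg1, Itgae and Il10 differed by 2.58, 2.30 and 1.62 without overlap. The other 2 genes were lower, Izumo1r at -0.96 without overlap and Gpr83 at -0.56 with overlapping groups. For Gpr83 the difference was 0.096 within replicate 1 and -1.21 within replicate 2. A larger share of regulatory T cells and more receptor transcript per cell cannot be told apart in these samples.

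Downstream of the receptors the signalling genes were close to the array's median. Of 20 tested TRAF adaptor and receptor-proximal NF-kappaB genes 12 had a difference above 0 and 8 below, with a median of 0.067 and 0 at least 2-fold apart, and the median was -0.22 under median scaling and 0.20 with the mean of probe sets. None passed the adjusted test and 2 of the 20 had an unadjusted p under 0.05 in limma. By that measure 10.2% of all tested genes were higher and 4.37% lower, so the 2 were not more than the share of all genes. The 2 were Tank, a TRAF-binding regulator, at 0.64 (0.071 to 1.20), and Ikbkb, a catalytic subunit of the IkappaB kinase, at -0.55 (-1.06 to -0.038). Traf1, an adaptor that binds 4-1BB and that NF-kappaB induces, could not be read in 1 way. Its chosen probe set had signals of 354 and 378 in GFP-positive and 376 and 349 in GFP-negative cells, a difference of 0.014, while its other probe set of nearly the same brightness had 397 and 502 in GFP-positive and 270.4 and 297 in GFP-negative cells, a difference of 0.63. Tank, Ikbkb and Traf1 were singled out after their values were seen.

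Genes of death domain signalling were likewise mixed, with 5 of 11 tested genes above and 6 below 0, a median of -0.16 and 0 passing the adjusted test. By an unadjusted p under 0.05 in limma 2 were higher and 0 lower, against 10.2% and 4.37% of all tested genes. The genes with an unadjusted p under 0.05 were Siva1, whose product binds CD27, at 0.97 (0.24 to 1.70; limma adjusted p = 0.269), with signals of 145 and 83.8 in GFP-positive and 54.2 and 43.9 in GFP-negative cells, and Fem1b, at 0.63 (0.11 to 1.147; limma adjusted p = 0.286). The median of the list was -0.40 under median scaling, 0.17 with the mean of probe sets and 0.054 without GFP-negative replicate 2. Tradd, the adaptor of TNF receptor 1, differed by -0.33, Casp8, the initiator caspase of death receptors, by -0.30 and Fadd, the adaptor of Fas, by 0.47, each with groups that did not overlap. Of the 11 genes 4 were higher and 3 lower without overlap, against 28.7% and 18.7% of all tested genes. Cflar, whose product blocks caspase-8, had signals of 2090 and 1927 in GFP-positive and 1607 and 1673 in GFP-negative cells, a difference of 0.29. Siva1, Fem1b, Tradd, Casp8, Fadd and Cflar were likewise chosen after their values were seen.

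**Figure D4:**
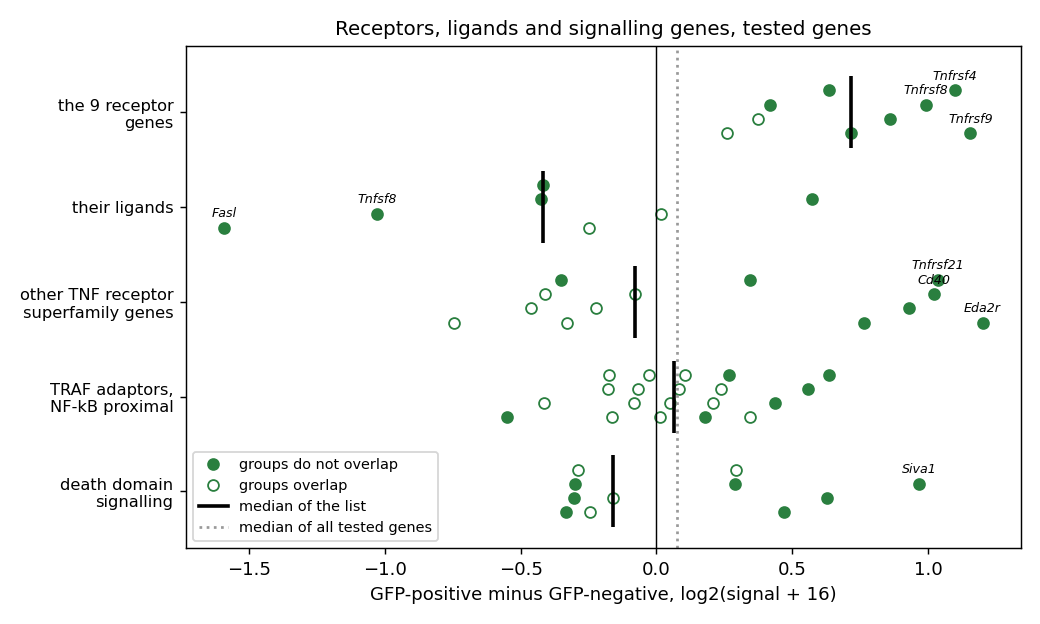
Differences of tested genes, GFP-positive minus GFP-negative on the log2(signal + 16) scale, for the 9 receptor genes, their ligands, other superfamily receptors, TRAF and NF-kappaB genes and death domain genes. Each dot is a gene, filled where the groups do not overlap, black bars are list medians (0.72, -0.42, -0.078, 0.067 and -0.16) and the dotted line is the median of all tested genes (0.075).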

How the data were processed

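Per the labels' protocols, biotin-labelled total RNA was measured on Affymetrix mouse arrays. The deposited values are linear intensities, 1 per probe set and array, and the software that made them is not given in the sources used here. The trimmed mean (2% at each end) of 150.0 on every array is what scaling by 1 factor gives. Detection calls were not used here.

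Of 45101 probe sets, 34945 non-control ones had 1 gene symbol in the platform annotation, 932 had several and 9224, with 64 controls, had none used here. Means over arrays for choosing probe sets were taken on the log2(signal + 16) scale. The 12252 genes above the 40th percentile of probe sets (27.3) entered limma 3.58.1 under R 4.3.3 (two-sided test, lmFit and eBayes without trend), with group as the only term and Benjamini-Hochberg adjustment over these genes. Differences are GFP-positive minus GFP-negative with 95% intervals from the fit, whose precision the 4 arrays limit. The fit was tested on simulated data.

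The receptors and gene lists were chosen with earlier results of these data known. Beside the receptors and their ligands, the text was to name called genes and up to 4 genes per list that were at least 2-fold apart without overlap. Kit, of the mast cell markers, met this rule and is not described. Of the cell markers, C1qa, C1qb, C1qc, Itgax, Izumo1r and Gpr83 are named outside the rule. Signalling genes outside it are marked where they appear. Promoters and gene order came from RefSeq (GRCm38.p6). Some listed genes are not analysed here.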

Additional observations from a re-analysis of the deposited data

Results flagged for a closer look

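Probe sets were flagged where the GFP-positive array stood on opposite sides of the GFP-negative array within replicate 1 and within replicate 2. This was so for 6 of 50 probe sets read for genes named in the text, a count that leaves out Gpr83. Gpr83 differed by 0.096 within replicate 1 and by -1.21 within replicate 2. The flag compares the female with the male pair of arrays, and the difference between the pairs was not tested. Cd70 differed by -1.17 within replicate 1 and by 0.67 within replicate 2. Tnf differed by 0.070 within replicate 1 and by -0.037 within replicate 2. The third, dim probe set of Tnfrsf9 differed by 0.95 within replicate 1 and by -0.38 within replicate 2. The chosen probe set of Traf1 differed by -0.085 within replicate 1 and by 0.11 within replicate 2. Among genes next to a receptor gene, Per3 differed by -0.094 and 0.52 and Tapbpl by 0.25 and -0.39 within replicates 1 and 2. All values are on the log2(signal + 16) scale.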

How the results depend on the processing

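Over 16 other settings, 141 of 143 receptor differences stayed above 0 (Tnfrsf8 was under the stricter minimum signal and has no value there), and 139 did not pass the adjusted p of 0.05 in limma. The exceptions in sign were Tnfrsf25 at -0.014 under median scaling and -0.060 without GFP-positive replicate 1, in a range of -0.060 to 0.58 without 1 array. Tnfrsf9 and Tnfrsf4 passed with a pseudocount of 64 (adjusted p = 0.0186 and 0.0303) and with trend and robust settings (0.00179 and 0.0103), so 2 of the 9 were called there. The count of receptors at least 2-fold apart was 0 under median scaling, and 2 to 3 without 1 array. Receptors that were higher without overlap numbered 6 under median scaling and with the stricter minimum signal, against 7 as reported. The median of the 9 was 0.72 with a pseudocount of 1, 0.59 with 64, 0.77 under quantile normalization, 0.75 under cyclic loess, 0.40 under median scaling, 0.68 with the stricter minimum signal, 0.75 with the mean of probe sets, 0.56 to 0.96 without 1 array and 0.78 with the second probe sets of Tnfrsf9 and Tnfrsf1b, a choice made after seeing the data. Genes called over the whole array numbered 4 as reported, 175 with a pseudocount of 64, 50 with the stricter minimum signal, 8 with the mean of probe sets and 240 with trend and robust settings. They were 0 with a pseudocount of 1, under quantile, cyclic loess or median scaling, without the minimum signal, without any 1 array, and with mean signals taken on the linear scale, which was added after seeing the data (an unadjusted p under 0.05 was found there for 1247 genes with a higher and 521 with a lower mean). With the replicate number as a block limma called 0 genes, an unadjusted p under 0.05 was found for 1502 genes with a higher and 626 with a lower mean, and the lowest adjusted p of the receptors was 0.153. Deviations of same-numbered arrays correlated at 0.198, and the labels do not say that a number marks shared mice. No receptor was called with or without the block. The median of the other superfamily receptors was 0.17 without the minimum signal, 0.13 with the stricter one, 0.25 with the mean of probe sets and -0.13 to 0.33 without 1 array. That of the ligands was -0.67 under median scaling and -0.26 with a pseudocount of 64, where, as with trend and robust settings, 1 of them (Fasl) was called. That of the TRAF and NF-kappaB genes was -0.22 under median scaling, 0.20 with the mean of probe sets, 0.031 without the minimum signal, 0.095 with mean signals on the linear scale and 0.015 to 0.15 without 1 array, and that of the death domain genes -0.40 under median scaling, 0.17 with the mean of probe sets and -0.12 to 0.054 without 1 array. The causes were not tested, beyond the fewer genes or samples that a setting leaves.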

Other observations

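The arrays of a group differed from each other, for some receptors in the same direction in both groups. Tnfrsf18, Tnfrsf1b, Tnfrsf25 and Fas, 4 of the 9 receptor genes, were higher on replicate 1 than on replicate 2 in both groups. Fas was so by only 0.032 in GFP-negative cells. The share of all tested genes with this order is not given here, so the count is not read as a trait of the receptors. For Tnfrsf1b the replicate 1 minus replicate 2 difference was 0.54 in GFP-positive and 0.57 in GFP-negative cells, and for Tnfrsf18 it was 0.35 in GFP-positive and 0.42 in GFP-negative cells, on the log2(signal + 16) scale. Tnfrsf1a ran the other way, at -0.38 in GFP-positive and -0.64 in GFP-negative cells. Tnfrsf4 and Tnfrsf9 differed in opposite directions in the groups, at 0.27 and 0.16 in GFP-positive and -0.25 and -0.14 in GFP-negative cells. The replicate number coincides with the sex of the mice, and sex and any other difference between the numbers cannot be told apart.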
